A study of Homo sapiens with 7 samples.

Results

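MYC encodes a transcription factor of the basic helix-loop-helix leucine zipper class that binds DNA with its partner MAX and drives growth and proliferation genes. Its mRNA is short-lived. A stretch near the 3' end of its coding sequence, the coding region instability determinant, is bound by IGF2BP1 and related proteins that stabilise the message, and IGF2BP proteins are known as readers of the internal mRNA modification N6-methyladenosine (m6A). The peaks described here are the 12 m6A peaks, of 59659 in 4 lists, that carry the Ensembl ID of MYC (ENSG00000136997) or lie in its RefSeq span on its strand. Both ways of assigning peaks gave the same 12. MYC is 1 of 13566 genes with a peak in any list.

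The libraries come from HEK-293T, a line derived from human embryonic kidney and grown without any treatment of the cells. In m6A-ORL, isolated and fragmented RNA was exposed in turn to NO/O2, TDO and a probe named BA, and the fragments that had taken up biotin were pulled down with streptavidin and then freed by DTT. In MeRIP, fragments were captured with an antibody against m6A. There were 2 captured libraries per method. Their titles say treated and those of the inputs say control, which was read here as captured and input RNA. The RNA was labelled total RNA in m6A-ORL replicate 1 and polyA RNA in m6A-ORL replicate 2 and in both MeRIP libraries, so RNA type and replicate cannot be told apart within m6A-ORL. The label of m6A-ORL replicate 1 goes against the protocol, in which an oligo(dT) step is given for every sample. The 3 input samples, 1 labelled for MeRIP and 1 for each m6A-ORL replicate, were not analysed here. The labels do not tell whether the replicates were separate cultures, so a p-value over libraries reflects the spread among 4 libraries, and that spread may be technical. The m6A-ORL lists held 11022 and 7661 peaks, and the MeRIP lists 20760 and 20216. The read depth is unknown, and the number of peaks limits the precision.

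The span of MYC in hg38 is chromosome 8, 127735434 to 127742951, on the plus strand, a length of 7518 nt. The peaks of all lists fell into a 5' region, a middle region and a 3' region of this span, and each region had a peak in every list. Another, short stretch between the 5' and the middle region was covered in m6A-ORL replicate 2. The sources used here give no exon, start codon or stop codon of MYC, so peaks are placed by their distance along the span, and whether any of them lies in the instability determinant was not tested.

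MYC had 4 peaks in m6A-ORL replicate 1 and 2 peaks in m6A-ORL replicate 2, against 3 peaks in each MeRIP list. The means were 3 ± 1.41 peaks by m6A-ORL and 3 ± 0 peaks by MeRIP (SD, n = 2 each), so the means were equal (exact two-sided permutation p = 1). The m6A-ORL libraries lie on either side of the MeRIP libraries. MYC was one of 2138 genes with a peak in every list, which are 15.8% of all genes with a peak in any list.

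**Figure D1:**
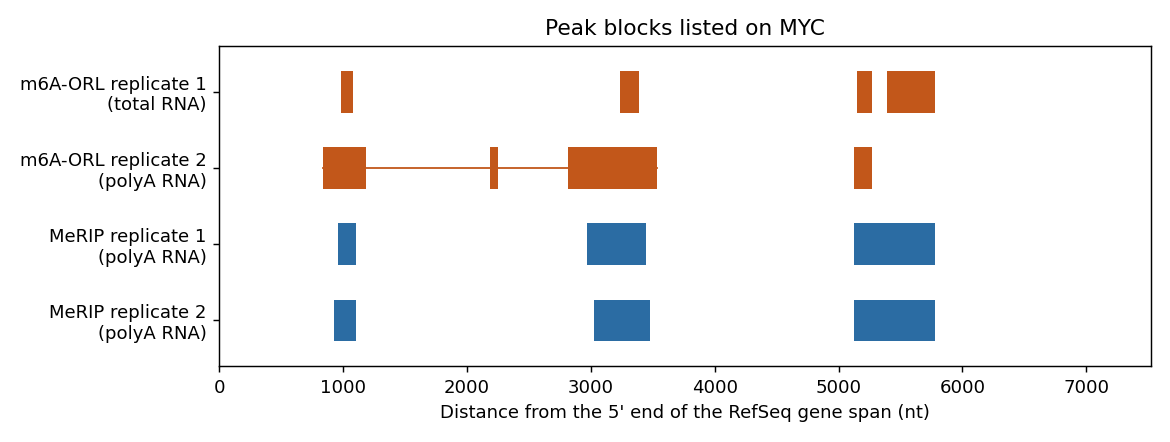
Peak blocks on MYC in each list, drawn by distance (nt) from the 5' end of its RefSeq span, with a thin line joining the blocks of 1 peak; m6A-ORL is orange and MeRIP blue. The 2 MeRIP lists have nearly the same 3 peaks, m6A-ORL replicate 1 has 4 narrower ones inside them, and m6A-ORL replicate 2 has a 3-block peak over the 5' and middle regions and 1 peak at the start of the 3' region.

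In the 5' region, m6A-ORL replicate 1 listed a peak of 91 nt from 127736422 to 127736512. The first block of a 3-block m6A-ORL replicate 2 peak covered 351 nt from 127736273 to 127736623. MeRIP replicate 1 listed 150 nt from 127736393 to 127736542, and MeRIP replicate 2 listed 180 nt from 127736363 to 127736542. The narrowest of these lies wholly inside the others, so 91 nt were common to every list. The centres of the blocks lay at 7 nt and -12 nt from the mean MeRIP centre in the m6A-ORL replicates, and at 7.5 nt and -7.5 nt in the MeRIP replicates, with positive values toward the 3' end. In this region the offset of the m6A-ORL blocks is close to the spread between the MeRIP replicates.

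In the middle region, m6A-ORL replicate 1 had a peak of 151 nt from 127738669 to 127738819. The last block of the 3-block m6A-ORL replicate 2 peak covered 722 nt from 127738248 to 127738969. MeRIP replicate 1 had 480 nt from 127738400 to 127738879, and MeRIP replicate 2 had 450 nt from 127738460 to 127738909. The m6A-ORL libraries had both the narrowest and the widest block here, with the MeRIP libraries between them. The m6A-ORL centres lay 82 nt downstream of the mean MeRIP centre in replicate 1 and at -53.5 nt in replicate 2, against -22.5 nt and 22.5 nt for the MeRIP replicates, and 151 nt were common to every list.

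The peak that joined these regions in m6A-ORL replicate 2 had 3 blocks. Between its 351 nt and 722 nt blocks lay another of 66 nt, from 127737621 to 127737686, with gaps of 997 nt and 561 nt on its sides. Whether these gaps are introns was not tested, since no exon annotation was used here. No other list had a peak on the 66 nt block. The peak held 1139 nt in its blocks, and peaks with 3 or more blocks made up 1.08% of m6A-ORL replicate 1 and 5.97% of m6A-ORL replicate 2, against 3.24% and 3.17% of the MeRIP lists. All MYC peaks of the other 3 lists had 1 block.

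The 3' region held the best-scored MYC peak of 3 lists. m6A-ORL replicate 1 had a peak of 120 nt from 127740585 to 127740704 and, after an uncovered gap, a peak of 391 nt from 127740824 to 127741214. m6A-ORL replicate 2 had a peak of 150 nt from 127740555 to 127740704 and nothing further downstream. Both MeRIP lists had 1 peak of 660 nt with the same edges, from 127740555 to 127741214. The start of the m6A-ORL replicate 2 peak and both MeRIP starts are the same position, and the end of the downstream m6A-ORL replicate 1 peak is the same position as both MeRIP ends. The upstream m6A-ORL replicate 1 peak also ends at the same position as the m6A-ORL replicate 2 peak. In every list the 1737 nt from the end of this region to the 3' end of the span had no peak.

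Shared edges carry less weight than their exact match seems to, because edges lie on a coarse grid. Of the 18 distances between neighbouring distinct block edges within a region of MYC, 15 were a multiple of 30 nt to within 1 nt. Over all genes, 87.2% and 96% of the single-block peaks in the m6A-ORL lists and 89.2% and 89.4% in the MeRIP lists had such a width. Differences of about 1 step, as between the 150 nt and 180 nt MeRIP peaks of the 5' region, are at the resolution of the lists.

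The part of the 3' region from 127740824 to 127741214 was under the best-scored MYC peak of m6A-ORL replicate 1 and of both MeRIP lists. m6A-ORL replicate 2 had no peak on these 391 nt. This arrangement was common among genes. Of 1198 genes with peaks in every list for which the best peaks of those 3 lists shared bases, 653 (54.5%) had no m6A-ORL replicate 2 peak on the shared bases. MYC is therefore on the more frequent side of that count. The absence of a listed peak does not give the level of signal there, which the files do not hold.

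The deposited score of a peak, read as a p-value or q-value, served only to order peaks within a list. In m6A-ORL replicate 1 the peak of 391 nt had a score of 5e-66 and stood at rank 232 of 11022, in the best 2.1% of the list. The remaining peaks of that library had scores of 1e-07 for the peak of 120 nt, 3.8e-05 for the middle peak and 5.6e-05 for the 5' peak, which place them in the best 23.4%, 52.4% and 54.8%. So 1 strong peak stood beside 3 of moderate or middling rank.

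In m6A-ORL replicate 2 the 3-block peak over the 5' and middle regions had a score of 4e-18, rank 236 of 7661 (the best 3.08%). The 3' peak of that library had a score of 2.3e-08, in the best 17.8%. Its order of regions is thus the opposite of that in the other lists, with the best score on the 3-block upstream peak.

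In the MeRIP lists the 3' peak led with scores of 1e-175 and 1e-166, ranks 693 of 20760 and 769 of 20216 (the best 3.34% and 3.8%). The middle peak followed with 5e-40 and 2e-41, in the best 16.2% and 16.1%. The 5' peak was weak, with 0.00028 and 6.6e-05, at 83% and 74.4% of the way down the lists. Both MeRIP libraries therefore ordered the regions from 3' to 5', as m6A-ORL replicate 1 did, although there the middle and 5' peaks were close in rank.

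**Figure D2:**
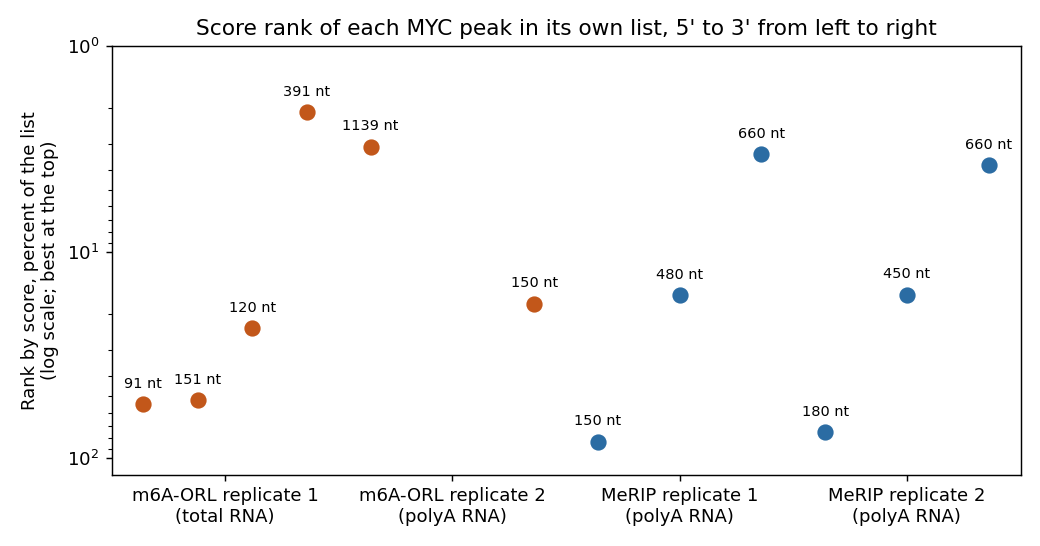
Rank of each MYC peak by score as a percentage of its own list (log scale, best at the top), with the peaks of a library placed 5' to 3' from left to right and labelled with their width in nt. The most 3' peak is the best-ranked in m6A-ORL replicate 1 (2.1%) and in both MeRIP lists (3.34% and 3.8%). In m6A-ORL replicate 2 the best-ranked is the 3-block peak over the 5' and middle regions (3.08%).

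Ranked among genes by their best peak, MYC was 225th of 7203 genes in m6A-ORL replicate 1 and 193rd of 4495 in m6A-ORL replicate 2, against 638th of 9791 and 707th of 9638 in the MeRIP lists. These are the best 3.12% and 4.29% of genes by m6A-ORL, and the best 6.52% and 7.34% by MeRIP. MYC was near the top of every list. The lists differ in length, so the percentages cannot be used to compare the methods.

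MYC peaks covered 753 nt in m6A-ORL replicate 1 and 1289 nt in m6A-ORL replicate 2, against 1290 nt in each MeRIP list. The polyA m6A-ORL library thus covered 1 nt less than the MeRIP libraries, on partly different positions, and the total RNA library covered fewer. The means were 1021 ± 379 nt by m6A-ORL and 1290 ± 0 nt by MeRIP (SD, n = 2 each). The difference of -269 nt is smaller than the spread between the m6A-ORL libraries, and its exact two-sided permutation p of 0.33 is the smallest that 3 splits of 4 libraries allow. Without m6A-ORL replicate 1 the difference was -1 nt, and without m6A-ORL replicate 2 it was -537 nt.

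Few genes had as many bases under peaks as MYC in the m6A-ORL lists. The share of genes with at least as many was 4.3% in m6A-ORL replicate 1 and 1.89% in m6A-ORL replicate 2, against 15.4% and 15% in the MeRIP lists. The median gene had 177 nt and 180 nt in the m6A-ORL lists, and 422 nt and 421 nt in the MeRIP lists. By number of peaks, 5.07% of the genes in m6A-ORL replicate 1 had at least 4 and 37.1% in m6A-ORL replicate 2 had at least 2, against 27.7% and 27.2% with at least 3 in the MeRIP lists. The high place of MYC in m6A-ORL replicate 2 rests on the width of 1 peak rather than on the number of peaks. Its 1139 nt were matched or exceeded by the widest peak of 0.289% of genes in that list, while the widest MYC peak was matched in 5.62% of genes in m6A-ORL replicate 1 and in 19.7% and 19.4% in the MeRIP lists.

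**Figure D3:**
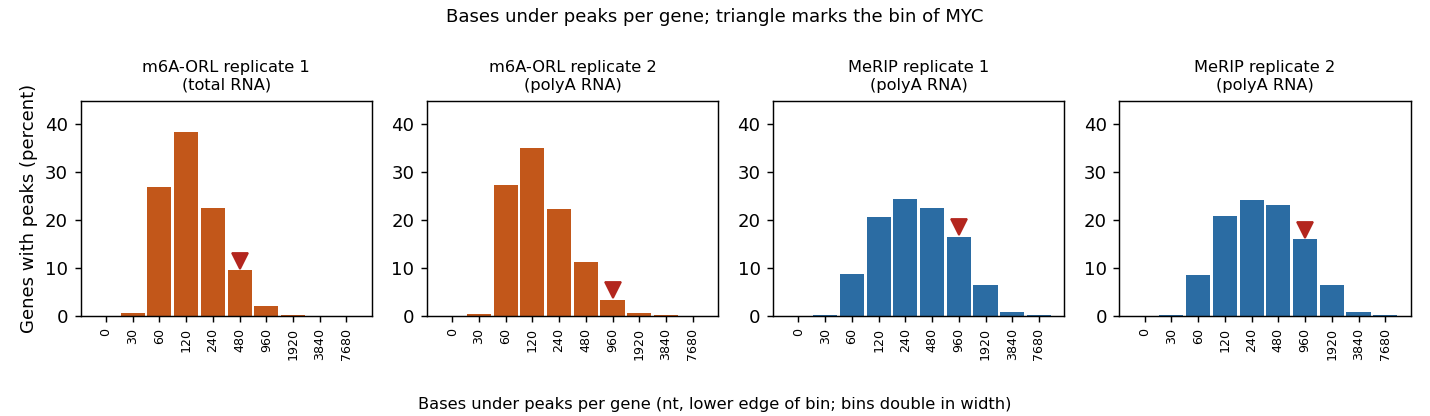
Share of genes (percent of genes with a peak in that list) by the number of bases under their peaks, in bins that double in width, for each list; the triangle marks the bin that holds MYC. MYC lies in the upper tail of both m6A-ORL lists (753 and 1289 nt) and above the median in both MeRIP lists (1290 nt each).

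Next, the positions were compared between lists. All 6 m6A-ORL peaks of MYC were overlapped by a MeRIP peak, and all 6 MeRIP peaks by an m6A-ORL peak. The result was the same with 1 nt or with 50% of the shorter peak as the minimum. With lists cut to equal length, 5 of the 6 m6A-ORL peaks were overlapped by a MeRIP peak. The share of all peaks overlapped by the other method was not counted, so these numbers do not set MYC apart from other genes. Of the 1799 nt of MYC under any peak, 362 nt (20.1%) were under peaks of every list, 749 nt (41.6%) of 3 lists, 239 nt (13.3%) of 2 lists and 449 nt (25%) of 1 list. The 362 nt were made up of 91 nt in the 5' region, 151 nt in the middle region and 120 nt in the 3' region. In each of these regions they equal the width of an m6A-ORL replicate 1 peak. The common bases depend on the lists used, being 720 nt without m6A-ORL replicate 1, 753 nt without m6A-ORL replicate 2 and 120 nt in the better-scored 50% of each list.

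A base common to every list was present in 842 of the 2138 genes with a peak in every list (39.4%). The median of these 842 genes was 120 nt, and 7.6% of them had at least the 362 nt of MYC. A gene with many bases under peaks has more room for common bases, and this was not adjusted for.

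Every base of the m6A-ORL replicate 1 peaks (100% of 753 nt) lay under peaks of either MeRIP list, which equals 58.4% of the MeRIP bases and of the union. For m6A-ORL replicate 2, 780 nt were shared with either MeRIP list, or 60.5% of the bases of each and 43.4% of the union. The m6A-ORL libraries shared 362 nt with each other, which is 48.1% of replicate 1, 28.1% of replicate 2 and 21.5% of their union. The MeRIP libraries shared 1230 nt, or 91.1% of their union. The m6A-ORL pair differs in RNA label and the MeRIP pair does not, so the pairs are not alike. On MYC, then, each m6A-ORL library had more bases in common with MeRIP than with the other m6A-ORL library.

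The order of these values was like that of the median gene, at a higher level. Among genes with peaks in both lists of a pair, the median share of the union was 0% between the m6A-ORL libraries and 79.3% between the MeRIP libraries. It was 17.5% and 17.2% for m6A-ORL replicate 1 against MeRIP, and 8.38% and 8.15% for m6A-ORL replicate 2 against MeRIP. The share for MYC was above that of 92.3% to 92.7% of genes in the 4 pairs between methods, of 77.7% of genes between the m6A-ORL libraries, and of 77.8% of genes between the MeRIP libraries.

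**Figure D4:**
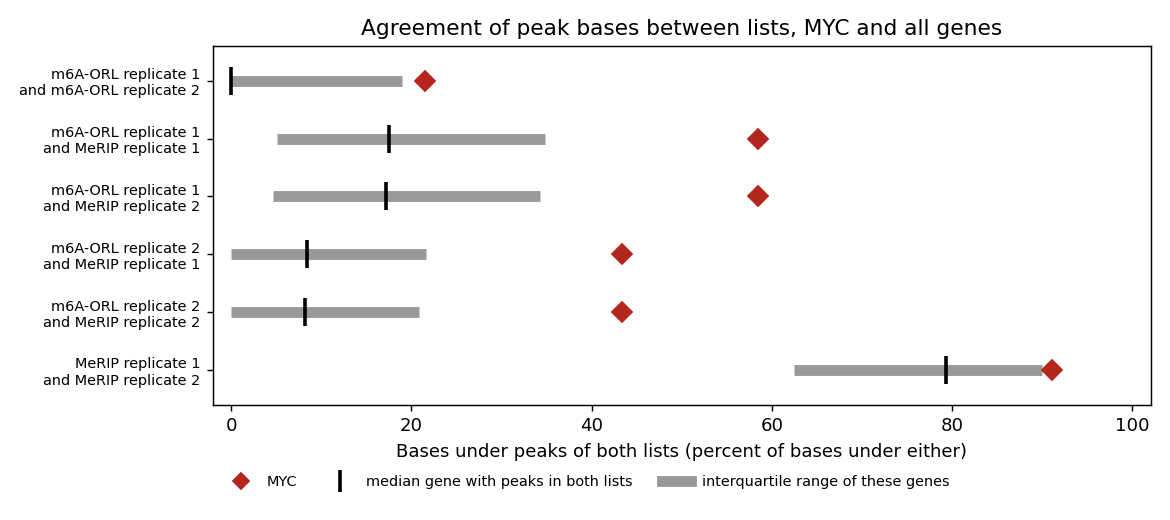
Bases under peaks of both lists as a percentage of the bases under peaks of either, for the 6 pairs of lists; diamonds are MYC, ticks the median gene with peaks in both lists and bars the interquartile range of these genes. MYC lies above the interquartile range in every pair, at 21.5% between the m6A-ORL libraries, 43.4% to 58.4% between methods and 91.1% between the MeRIP libraries.

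The m6A-ORL blocks of the 3' region were off-centre with respect to MeRIP. Their centres lay at -240 nt and 134.5 nt from the common MeRIP centre for the peaks of replicate 1 and at -255 nt for the peak of replicate 2. Over all genes, the median distance between the centres of overlapping single-block peaks was 89.5 nt and 89 nt for m6A-ORL replicate 1 and 90 nt and 104.5 nt for m6A-ORL replicate 2, each against MeRIP replicate 1 and then MeRIP replicate 2. The upper quartile lay between 178 nt and 224 nt. Measured in the same way on MYC, the 5' peak of m6A-ORL replicate 1 lay 0.5 nt and 14.5 nt from the MeRIP peaks, nearer than the median pair. Its middle peak lay 104.5 nt and 59.5 nt from them, on either side of the median. The more upstream peaks of the 3' region, at 240 nt in m6A-ORL replicate 1 and 255 nt in m6A-ORL replicate 2, were farther than the upper quartile. The downstream m6A-ORL replicate 1 peak, at 134.5 nt, lay between the median and the upper quartile. The distances were not matched for peak width. The MeRIP peak here has 660 nt, against a median width of 211 nt in each MeRIP list, and a wider peak allows larger distances. The 3-block m6A-ORL replicate 2 peak has several blocks and has no place in this comparison.

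No peak on the other strand lay in the span of MYC in any list. The nearest peaks on the 3' side were in PVT1, a long noncoding RNA gene, at 256 kb from the span in m6A-ORL replicate 1 and at 148 kb in both MeRIP lists. In m6A-ORL replicate 2 the nearest peak on that side was 4740 kb away. On the 5' side the nearest peak was 1180 kb away in m6A-ORL replicate 1 and in both MeRIP lists, and 3280 kb away in m6A-ORL replicate 2.

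By the number of peaks in the 4 lists, 1 of 1848 other named genes with a peak in every list had the same numbers as MYC. This was ZNF689, named for a zinc finger protein (chromosome 16, 30602558 to 30610775), with 4 and 2 m6A-ORL peaks and 3 MeRIP peaks in each list. Its peaks covered 722 nt and 420 nt by m6A-ORL, against 1379 nt and 1229 nt by MeRIP, and 181 nt were common to every list. Both m6A-ORL libraries covered fewer bases of this gene than either MeRIP library, and m6A-ORL replicate 2 covered the fewest. This differs from MYC, where m6A-ORL replicate 2 covered 1289 nt against 1290 nt in each MeRIP list. C11orf24, ZFP62, YTHDF2 and PWWP2A came next, each differing from MYC by 1 peak over the 4 lists. YTHDF2, which encodes an m6A reader that promotes mRNA decay, had 3 and 2 m6A-ORL peaks over 958 nt and 359 nt, against 3 MeRIP peaks over 1642 nt in each list. The measure was the sum of absolute differences in peak number, with ties ordered by bases covered.

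Partners and regulators of MYC were then examined as 5 lists of 37 genes in all, of which 30 could be named in the files. Peaks were in both m6A-ORL lists for 17 of the 30 (56.7%) and in both MeRIP lists for 25 (83.3%). Over all named genes these shares were 20.8% and 68.8%, and over all genes with a peak in any list, named or not, 19.3% and 65.9%. Peaks in every list were found for 14 of the 30 (46.7%), against 17.5% of all named genes. The genes were chosen for their tie to MYC and not matched for expression, so these shares describe the list and are not a test. A base common to every list was present in 5 of the 14 (35.7%), near the 39.4% of all genes with a peak in every list. In the better-scored 50% of each list, the number with peaks in both m6A-ORL lists was 9, against 23 in both MeRIP lists. The shares over all named genes were not counted at that setting, so these numbers have no background.

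Of the MYC paralogs, MYCL had no m6A-ORL peak, against 4 and 3 MeRIP peaks over 1862 nt and 1921 nt. The span of MYCN had no peak in any list. MYC was thus the family member with peaks by both methods.

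In the MAX network, 4 of 9 named genes (44.4%) were in both m6A-ORL lists and 8 (88.9%) in both MeRIP lists. The shares over all named genes were 20.8% and 68.8%. MAX, the shared dimerisation partner, had 2 peaks in each m6A-ORL list, against 4 and 5 MeRIP peaks. The m6A-ORL peaks of MAX covered 331 nt and 122 nt, against 1141 nt and 1142 nt by MeRIP, and no base was common to every list. MNT, a MAX-binding repressor, had 1 and 2 m6A-ORL peaks, against 6 and 5 MeRIP peaks, with 61 nt common to every list.

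Several members of this network differed between the m6A-ORL libraries, as many genes did. Over all genes, 7203 and 4495 had peaks in the m6A-ORL lists and 2617 had peaks in both. MGA, another MAX-binding repressor, had 7 m6A-ORL peaks in the total RNA library and none in the polyA library, against 5 and 8 MeRIP peaks. MXD4, which competes with MYC for MAX, had 0 and 4 m6A-ORL peaks, against 8 and 5 MeRIP peaks. MXD1 and MLX had no m6A-ORL peak, against 1 and 2 MeRIP peaks for MXD1 and 1 in each list for MLX. MLXIP, a partner of MLX, had 3 and 6, against 5 and 3. MLXIPL, another partner of MLX, had 1 peak in each m6A-ORL list, against 1 and 2 by MeRIP. MXI1, a relative of MXD1, had 1 peak in m6A-ORL replicate 1 alone.

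Genes for proteins that bind MYC mRNA or are part of complexes on its instability determinant had peaks in both m6A-ORL lists in 6 of 8 named cases and in both MeRIP lists in 6 of 8. IGF2BP1, which binds the determinant, had 0 and 1 m6A-ORL peaks, against 1 in each MeRIP list. IGF2BP2 had 0 and 2, against 3 in each MeRIP list, and IGF2BP3 had 1 in each m6A-ORL list, against 2 in each MeRIP list. None of the 3 had a base common to every list.

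HNRNPU, SYNCRIP, YBX1 and DHX9 encode proteins found with IGF2BP1 on the determinant. HNRNPU had 2 and 3 m6A-ORL peaks, against 4 and 3 by MeRIP, and SYNCRIP had 1 and 2, against 3 in each MeRIP list. YBX1 had 1 and 2, against 1 in each MeRIP list, and shared 150 nt among all lists. DHX9, an RNA helicase, had 1 and 2 by m6A-ORL, against none by MeRIP. ELAVL1, which binds AU-rich mRNA elements, had 3 and 2 by m6A-ORL, against none by MeRIP. No other gene of the 30 was listed in both m6A-ORL libraries without a MeRIP peak. MYCL, MXD1 and MLX had the reverse, with peaks in both MeRIP lists and none by m6A-ORL. The share of all named genes with either arrangement was not counted, so neither is shown to be unusual.

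Genes for cofactors of MYC had peaks in both lists of m6A-ORL in 6 of 8 named cases (75%), and in both lists of MeRIP in 6 of 8 (75%). All named genes had shares of 20.8% and 68.8%. HCFC1, a chromatin-associated cofactor, had 4 and 13 m6A-ORL peaks, against 3 in each MeRIP list. Its common bases numbered 721 nt, more than those of MYC. CDK9, the kinase of the elongation factor P-TEFb, had 1 in each m6A-ORL list, against 3 in each MeRIP list, with 61 nt in common. EP400, an ATPase of chromatin remodelling, had 3 and 5 m6A-ORL peaks, against 4 in each MeRIP list, without a common base.

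KAT5, an acetyltransferase, had 1 peak in each m6A-ORL list, against 2 in each MeRIP list. WDR5, which recognises histone H3 tails, had 1 in each m6A-ORL list, against 1 and 2 by MeRIP. ZBTB17, which encodes the MYC-binding protein MIZ1, had 0 and 1 m6A-ORL peaks, against 2 and 3 MeRIP peaks. The related ATPase genes RUVBL1 and RUVBL2 had 2 and 0, and 2 and 3, m6A-ORL peaks, against none, and 1 and 0, by MeRIP. The cofactors therefore did not share 1 pattern.

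Among genes for MYC protein turnover, 1 of 4 named genes (25%) was in both m6A-ORL lists and 4 were in both MeRIP lists. These stand beside 20.8% and 68.8% of all named genes. Differences between the gene lists were not tested. FBXW7, the ubiquitin ligase subunit that recognises phosphorylated MYC, had 4 and 0 m6A-ORL peaks, against 4 and 3 MeRIP peaks. GSK3B, a kinase that phosphorylates MYC, had 0 and 1, against 1 in each MeRIP list. HUWE1, another ubiquitin ligase, had 3 and 7, against 3 and 2, with 242 nt common to every list. AURKA, a kinase that stabilises MYC family proteins, had 1 and 0, against 1 in each MeRIP list.

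**Figure D5:**
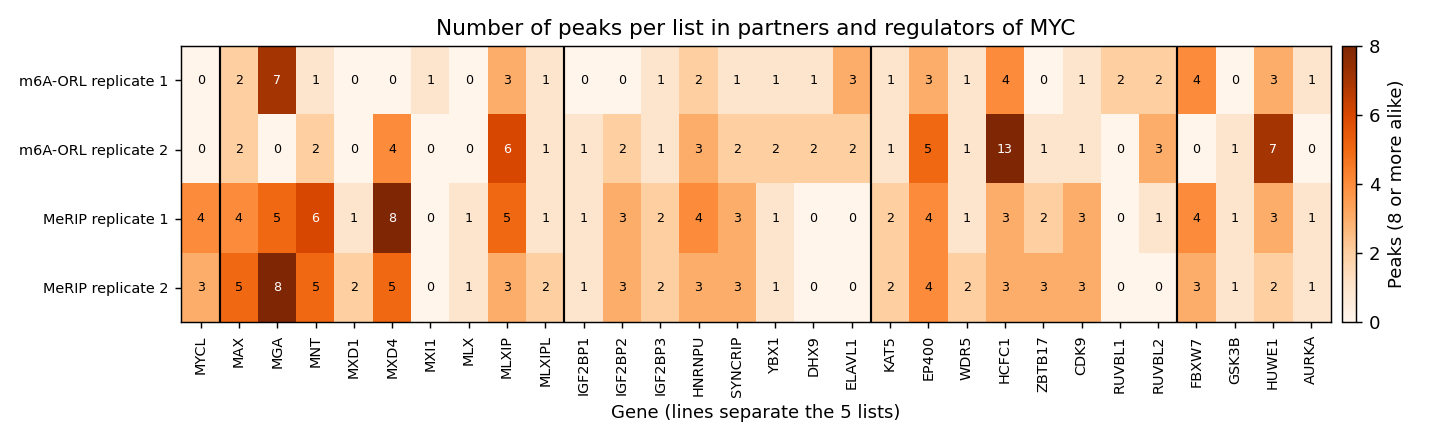
Number of peaks in each list (rows) for the 30 named partners and regulators of MYC (columns), with vertical lines between the 5 lists: MYC family, MAX network, MYC mRNA binding, MYC cofactors and MYC protein turnover. Peaks in both m6A-ORL lists are present for 17 genes and in both MeRIP lists for 25; HCFC1 has the highest number, 13 in m6A-ORL replicate 2.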

How the data were processed

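Per the file headers, each of the 4 deposited lists has 12 BED columns with position, strand, blocks, an Ensembl gene ID and a score. From its range, the deposited score was read as a p-value or q-value (maximum 0.0034 and 0.0015 in the m6A-ORL lists, 0.0079 and 0.0081 in the MeRIP lists). Which program called the peaks, against which input and at what threshold was not stated in the labels or headers. Per the submitters' processing notes, the tools were Trim Galore, STAR and HOMER, with no role or version stated, and the build was hg38. Depth is unknown.

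From these lists, 10 exact duplicate lines were removed, blocks were merged per gene and strand, and lists were compared base by base (minimum overlap 1 nt; Python 3.11.15, pandas 2.3.3, numpy 2.4.6), with the overlap code tested on simulated data. IDs other than that of MYC were named where at least 90% of their peak bases lay in the span of exactly 1 RefSeq gene (GRCh38.p14) not known to be on the other strand, with a 3-fold excess of bases deciding between IDs and elimination used last, which named 10561 of 13566 IDs (77.8%). Overlapping genes can make such a name wrong. Of the 7 list genes left without a name, 1 (MYCN) had no peak in its span and 6 had peaks under IDs with no assigned name, or with that of another gene.

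Some genes of the lists are not reported here. Named genes were MYC, the list genes and the 5 genes most like MYC by peak numbers. Method means were compared by exact permutation over 3 splits. Alternatives were the assignment rule, the better-scored 50% of each list, equal list length, a larger overlap, leaving out each library, and a replicate block. The members and lists were chosen with earlier results of these data known.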

Additional observations from a re-analysis of the deposited data

How the results depend on the processing

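The difference in mean number of MYC peaks (m6A-ORL minus MeRIP) was 0 by the ID alone and by the span alone, 0 in the better-scored 50% of each list and 1 at equal list length (7661 peaks), and it ranged from -1 to 1 when libraries were left out. The difference in covered bases was -225 nt in the better-scored 50% and -104 nt at equal length, and it ranged from -537 to -1 nt when libraries were left out. The labels give no shared animal, batch or day for equal replicate numbers. With the replicate block the differences were 0 peaks (exact permutation p = 1) and -269 nt (exact permutation p = 0.5, the smallest this design allows). The bases common to every list fell to 120 in the better-scored 50%. There the 5' and middle m6A-ORL replicate 1 peaks and the 5' peaks of both MeRIP lists drop out. The common bases numbered 271 at equal length, where the 5' peaks of both MeRIP lists drop out. With libraries left out, the common bases ranged from 362 to 753. At equal length the m6A-ORL lists kept 4 and 2 MYC peaks, of which 5 were overlapped by MeRIP. The MeRIP lists kept 2 each, and all 4 were overlapped by m6A-ORL. Without m6A-ORL replicate 1 all 2 remaining m6A-ORL peaks were overlapped by MeRIP, and with libraries left out the number overlapped ranged from 2 to 6. Without either MeRIP replicate all 3 remaining MeRIP peaks were overlapped, with a range of 3 to 6. MYC partners and regulators with peaks in both m6A-ORL lists numbered 9 in the better-scored 50%, against 14 at equal length and 17 to 22 with libraries left out, where 1 library can stand for the method. The MeRIP numbers were 23, 22 and 25 to 26. The shares over all named genes were not counted at these settings.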
